A study of Mus musculus with 22 samples.

Results

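The cells described here are intestinal neutrophils with the most transcripts of Ccl3, Ccl4, Tnf and Il1a. They come from the terminal ileum of mice, 21 days after transplantation of allogeneic hematopoietic cells. The transcripts of single cells were counted by CEL-Seq2, in which cells are sorted into plate wells and molecular identifiers mark the 3' end of each transcript. BALB/c recipients (7 to 9 weeks old) received 2 irradiation doses of 5 Gy and then 5000000 bone marrow cells from C57BL/6 donors (female C57BL/6N mice of 7 to 10 weeks). Mice with acute graft-versus-host disease (aGVHD; 12 libraries) also received 400000 donor T cells, and controls (10 libraries) received none, so that irradiation and an allogeneic graft were common to both groups. The sort gate, CD45+H2kb+CD11b+Ly6G+, selects neutrophils that carry the donor's MHC class I allele, taken here from collagenase-digested tissue freed of epithelium and Peyer's patches. Which mouse a library came from is not labelled.

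From 4224 barcodes, 1383 cells with at least 500 transcripts were kept, and 637 of these were taken as base cells: at least 5 transcripts of S100a8 and S100a9 together, at most 2 of C1qa, C1qb and C1qc, and at most 1 of Ngp, Ltf and Camp. The base thus left out cells with more C1q, Ngp, Ltf or Camp transcripts than this, though 45 of the 95 chosen and 266 of the 542 other base cells still held at least 2 transcripts of the macrophage and monocyte markers, and 29 and 186 at least 2 of the immature granule markers. The 95 base cells with the highest share of Ccl3, Ccl4, Tnf and Il1a among transcripts of named genes, the top 15% over all libraries, were the chosen cells, and the other 542 base cells served as their comparison. Of the 95, 81 came from aGVHD libraries (1 to 17 per library) and 14 from control libraries (0 to 3 per library). The rule itself required S100a8 and S100a9. The other 10 neutrophil markers listed for the check of the label were all detected among the 95 chosen cells, and among all base cells Il1r2 was found in 89.5% of chosen and 89.5% of other cells and Csf3r in 85.3% and 88.4%. The summed level of all 12 markers was lower in the chosen cells of all 7 libraries tested below (median 325 against 408 per 10000 named transcripts). Expression of the 4 genes was graded, without a gap at the threshold.

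CCL3 and CCL4 are chemokines that attract monocytes, T cells and other leukocytes through chemokine receptors such as CCR1. TNF and IL-1α are cytokines that activate endothelium and other leukocytes, TNF through TNFR1 and TNFR2 and IL-1α through the IL-1 receptor. All 4 genes are classic targets of NF-κB, a transcription factor held inactive by inhibitory IκB proteins, and neutrophils transcribe them within a short time of stimulation by microbial products or cytokines. Neutrophils are otherwise filled with granule and cytosolic proteins, such as the calprotectin subunits S100A8 and S100A9, many of whose transcripts are already made in the marrow.

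Total transcripts per library ran from 45607 to 360054. Libraries held 11 to 60 kept cells in the control group and 74 to 95 in the aGVHD group, and 2 to 26 and 25 to 66 base cells. The library titles fall into a dated set (6 control and 8 aGVHD libraries) and a G1 set (4 and 4). The chosen cells had a median of 2376 transcripts per cell, against 2464 in the other base cells. Their median of named transcripts was 1562, against 1426.

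The 4 genes that chose the cells were present in different mixtures from cell to cell. Ccl3 was the most widespread, with 1040 transcripts in 90 of the 95 chosen cells (94.7%) and a summed level of 68.5 per 10000 named transcripts. Ccl4 had 605 transcripts in 76.8% of cells (39.8 per 10000), Tnf 613 in 75.8% (40.4 per 10000) and Il1a 459 in 73.7% (30.2 per 10000). In the other base cells the same genes stood at 6.34, 2.69, 4.92 and 3.94 per 10000 and were found in 39.3%, 22.5%, 33.8% and 33.0% of cells. These values follow from the choice of the cells and describe it. All 4 genes were detected in 40 of the 95 cells, 3 of them in 36, 2 in 18 and 1 in 1 cell. Ccl3 contributed the most transcripts in 45 cells, Ccl4 and Tnf in 20 each and Il1a in 10. A chosen cell held a median of 24 transcripts of the 4 genes (3 to 79), against 2 in the other base cells, of which 164 held none and 18 held all 4 genes.

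**Figure D1:**
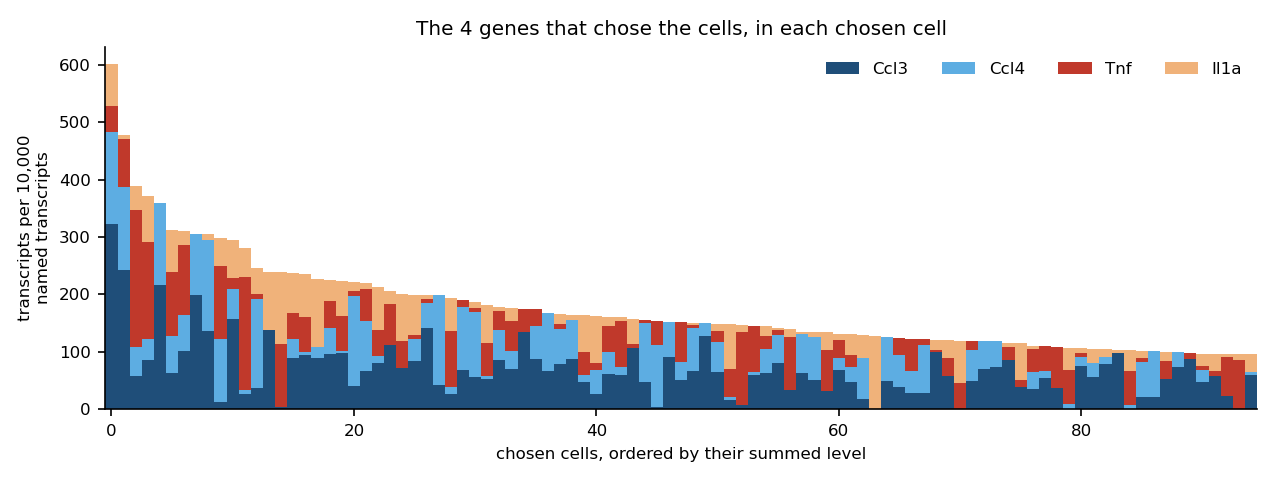
Level of each of the 4 genes that chose the cells, in transcripts per 10000 named transcripts, stacked for each of the 95 chosen cells and ordered by their sum. The sums ran from 95.2 to 601, with Ccl3 the most abundant of the 4 in 45 cells and cells dominated by Ccl4, Tnf or Il1a along the whole order.

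The mixture of the 4 genes can be described by their correlations between cells. Across the 95 cells, Spearman's rho was −0.31 for Ccl4 with Tnf, −0.33 for Ccl4 with Il1a and −0.26 for Ccl3 with Tnf, whereas it was 0.31 for Tnf with Il1a and 0.12 for Ccl3 with Ccl4. Part of the negative values is built in, since a cell had to reach a fixed sum of the 4 genes to be chosen. Across all 637 base cells, where no such sum was required, rho was 0.48 for Ccl3 with Ccl4, 0.27 for Tnf with Il1a and 0.24 for Ccl4 with Tnf. These correlations share each cell's depth and library and are given as a description.

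The threshold lay at 95.2 transcripts of the 4 genes per 10000 named transcripts. The 3 cells just inside it had 96.05, 95.7 and 95.2, and the 3 just outside 94.95, 94.7 and 93.5, and 19 chosen and 22 other cells lay within 20% of it. The transcripts of each cell were also split at random. The cells were chosen again on a random part, and the genes were read in the part not used. Of the 95 cells so chosen, 86 were also among those chosen on all transcripts. All transcripts include the part used for the new choice, so this overlap is raised by construction. In the unused part, Ccl3 was 58.0 ± 26.5 per 10000 (SD, n = 9 libraries) in the cells so chosen and 6.81 ± 5.00 in the others, and was higher in 9 of 9 libraries. Ccl4 was 39.6 ± 23.9 against 2.31 ± 0.553 and Il1a 24.8 ± 15.2 against 4.08 ± 3.12, each higher in 9 of 9 libraries, and Tnf was 39.0 ± 23.8 against 5.49 ± 2.20, higher in 8 of 9. Both parts came from the same cells, and the choice used the same 4 genes. These values describe the choice and are not separate evidence for it.

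Cells outside the base also carried the 4 genes. The 70 kept cells with over 2 C1q transcripts had a summed level of 35.2 per 10000, and 6 of them reached the threshold. Of the 625 kept cells with under 5 transcripts of S100a8 and S100a9, 59 reached it (9.44%), and their summed level was 30.8 per 10000. Barcodes of the part of each library with the smaller sum were taken not to have received a cell. They had 2.25 Ccl3, 1.52 Ccl4, 2.87 Tnf and 1.99 Il1a transcripts per 10000, and the source of these transcripts was not tested. Each of the 4 levels in the other base cells was above that in these barcodes, with the smallest ratios for Tnf and Ccl4.

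**Figure D2:**
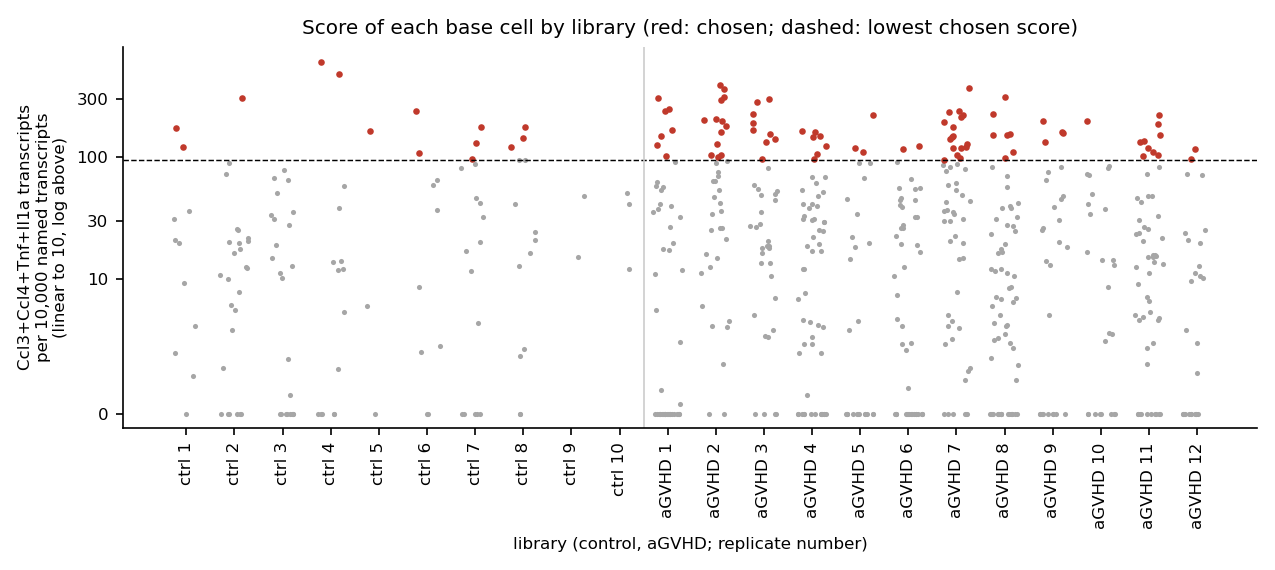
Summed Ccl3, Ccl4, Tnf and Il1a transcripts per 10000 named transcripts in each of the 637 base cells (points), by library, on an axis that is linear to 10 and logarithmic above. The dashed line is the lowest score of a chosen cell (95.2), the 95 chosen cells are red, and the scores run through the line without a gap.

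To describe what else distinguished the chosen cells, transcripts were summed per library over chosen and over other base cells, and genes outside the rule were tested with limma's voom method, with the library as a block. The 7 libraries with at least 5 cells of each class entered, all of them aGVHD libraries (replicates 1 to 4 of the G1 set and 7, 8 and 11 of the dated set), with 69 chosen and 291 other cells. No control library had 5 chosen cells, so these results hold for aGVHD libraries. Of 621 genes tested, 56 (9.02%) passed an adjusted p of 0.05, 39 higher (6.28%) and 17 lower (2.74%) in the chosen cells, and the median log2 fold change of all genes was −0.01. Levels below are summed transcripts per 10000 named transcripts without the 4 genes, and adjusted p-values are Benjamini-Hochberg values from limma over the 621 genes. The score was divided by the named transcripts of the cell, so that abundant genes entered its denominator. The low-count filter asked for its minimum in 7 of the sums, whatever their class. A gene low in the other base cells could thus be tested because of the chosen cells alone. Cxcl1, Ralgds, AA467197 and Maff may have entered in this way. Their medians in the other base cells were 0.735, 1.90, 2.19 and 1.66 per 10000, and their rises are given as a description. Only 6 genes had library values that did not overlap between the classes (0.966% of those tested), all higher in the chosen cells: Icam1, Ccrl2, Nfkbid, Ninj1 and, named after their values were seen, Plek and Ftl1, the last of which was not called.

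The gene lists below were chosen with earlier results of these data known, so the counts within them are descriptions. Over all 621 genes tested, 6.28% rose and 2.74% fell. Among the chemokine genes, 3 of 5 tested rose and 1 fell (median log2 fold change 1.07, against −0.01 over all genes). Cxcl2, a ligand of the neutrophil receptor CXCR2, was 163 to 383 per 10000 (median 217) in the chosen cells of the 7 libraries and 55.4 to 167 (median 83.1) in the other base cells. It was higher in 7 of 7 libraries, with a log2 fold change of 1.31 (SE 0.16, adjusted p = 2.79e-05), although the highest library of the other cells lay above the lowest of the chosen cells. Cxcl1, a second ligand of CXCR2 and one of the markers named for these cells with earlier results in view, was 0.914 to 13.6 per 10000 (median 6.24) against 0.138 to 3.52 (median 0.735). Its log2 fold change was 2.43 (SE 0.50, adjusted p = 0.0036), higher in 7 of 7 libraries, and without aGVHD replicate 4 it was 1.83 (adjusted p = 0.0577). Few cells carried it: 9 transcripts came from 1 of 7 chosen cells in replicate 1, and 15 from 2 of 7 in replicate 4. Replicate 8 had 1 transcript (0.914 against 0.735 per 10000), and replicate 7 had 4.09 against 3.52. Over all base cells Cxcl1 was found in 26.3% of chosen and 7.93% of other cells. Ccrl2, an atypical receptor that binds chemerin, which had been grouped with the chemokines, was 46.3 to 74.9 per 10000 against 14.7 to 33.3, with no overlap (log2 fold change 1.07, SE 0.17). Ccl6, a chemokine of myeloid cells, fell by 1.04 on the log2 scale, lower in 7 of 7 libraries. Its call was lost without any 1 of aGVHD replicates 2, 3, 7, 8 or 11 (log2 −1.18 to −0.88, adjusted p 0.0506 to 0.123). Cxcl10, an interferon-induced chemokine, was not called (log2 0.09, SE 0.44).

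All 3 cytokine genes that could be tested rose, with a median log2 fold change of 0.996. Il1rn, which encodes the antagonist of the IL-1 receptor, was 21.1 to 52.4 per 10000 in the chosen cells and 11.2 to 24.6 in the others, higher in 7 of 7 libraries (log2 0.996, SE 0.20, adjusted p = 0.00362). Csf1, the growth factor of macrophages, was 17.9 ± 7.67 (SD, n = 7) against 8.38 ± 2.48 and was higher in 6 of 7 libraries (log2 1.07, SE 0.25). Its call was lost without aGVHD replicate 11 (log2 0.90, adjusted p = 0.0534). Il1b, the more abundant IL-1 gene of neutrophils, was 152 ± 72.2 against 91.1 ± 34.9 and higher in 6 of 7 libraries (log2 0.64, SE 0.16, adjusted p = 0.0153). Without any 1 of aGVHD replicates 3, 4 or 11 it missed the threshold, with log2 fold changes of 0.52 to 0.59 and adjusted p of 0.0553 to 0.0617.

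Il23a, which encodes the p19 subunit of IL-23, had too few transcripts for the test. It had 122 transcripts in 33 of the 95 chosen cells (34.7%) and 105 in 47 of the 542 other base cells (8.67%). Per library its level was 4.97, 18.7, 6.80 and 0 per 10000 in the chosen cells of aGVHD replicates 1 to 4, and 7.24, 5.48 and 2.01 in those of replicates 7, 8 and 11. In the other base cells of the same libraries it was 0.138, 0.979, 1.84, 0.885, 2.20, 0.572 and 0.110 in the same order. It was thus higher in the chosen cells of 6 of 7 libraries, and replicate 4, with 7 chosen cells, held no Il23a transcript in them. Il23a had been named as a marker of these cells beforehand, so the values are a description.

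None of the tested receptors for the 4 ligands passed the test. Ccr1, the receptor for CCL3, was 14.5 ± 6.14 per 10000 (SD, n = 7) in the chosen cells and 10.2 ± 2.26 in the others, higher in 4 of 7 libraries (log2 0.38, SE 0.25, adjusted p = 0.378). Tnfrsf1b, encoding TNFR2, had a log2 difference of 0.56 (SE 0.24, adjusted p = 0.153), Tnfrsf1a, encoding TNFR1, of −0.15 (SE 0.32), and Il1r2, the decoy receptor of IL-1, of 0.08 (SE 0.18). Of the 12 tested genes of the list of ligand and pattern receptors, 2 rose and none fell (median log2 0.27), against 6.28% of all genes tested that rose. Both encode C-type lectins: Clec4e, the receptor Mincle for mycobacterial and fungal glycolipids, was 46.1 ± 17.0 per 10000 against 18.5 ± 5.88 and higher in 7 of 7 libraries (log2 1.28, SE 0.20, adjusted p = 0.000369). Clec4n, the receptor Dectin-2, was 13.8 ± 8.49 against 6.71 ± 2.64 (log2 0.93, SE 0.24, adjusted p = 0.0147), and its call was lost without aGVHD replicate 11 (log2 0.73, adjusted p = 0.0804). Clec4d, which encodes a lectin receptor that partners with Mincle, was not called (log2 0.21, SE 0.25).

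Inhibitors of the NF-κB pathway, which are themselves induced by it, were among the genes that rose. In the list of NF-κB subunits and feedback inhibitors, 4 of 9 tested genes rose, none fell and all 9 estimates were positive (median log2 0.61). Over all genes tested 6.28% rose. The list was chosen with earlier results of these data known, so its count is not separate evidence. Nfkbia, encoding IκBα, was 54.6 to 230 per 10000 (median 125) in the chosen cells and 39.8 to 89.0 (median 46.1) in the others, higher in 7 of 7 libraries (log2 1.02, SE 0.21, adjusted p = 0.00368). Tnfaip3, encoding the deubiquitinase A20, was 8.03 to 35.5 against 4.27 to 14.5 and higher in 6 of 7 libraries (log2 1.20, SE 0.25, adjusted p = 0.00386). Nfkbid, encoding the nuclear IκB protein IκBNS, was 5.44 to 13.7 against 2.35 to 5.33 (log2 1.06, SE 0.27), and its call was lost without aGVHD replicate 2 or 11 (log2 0.73 and 1.02). Tnfaip2, which the list holds though it encodes neither a subunit nor an established inhibitor, was 44.2 ± 14.98 against 28.5 ± 8.08 (log2 0.61, SE 0.17, adjusted p = 0.027). Its call was lost without replicate 2, 8 or 11 (log2 0.46 to 0.58). Nfkbiz (log2 0.63, SE 0.29), Birc3 (0.43, SE 0.26) and the subunit gene Nfkb2 (0.13, SE 0.43) were not called, and Nfkb1 and Rel had too few transcripts to be tested.

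Promoters of 4 of the genes that rose are shown because they carry letters of the motif bound by NF-κB dimers. The motif searched was GGGNNNTTCC on either strand (GGAANNNCCC on the strand shown), in windows from 250 bases before to 50 bases after each transcription start in the RefSeq table for GRCm38.p6. Matches on the 2 strands can overlap. The 250 bases before the start are printed 5′ to 3′ on the gene's strand, with the matching bases in capitals. They are Cxcl2 (chr5:90903649-90903898, plus strand), Cxcl1 (chr5:90890995-90891244, plus strand), Nfkbia (chr12:55492648-55492897, minus strand) and one of the 2 listed promoters of Tnfaip3 (chr10:19015411-19015660, minus strand).
Cxcl2: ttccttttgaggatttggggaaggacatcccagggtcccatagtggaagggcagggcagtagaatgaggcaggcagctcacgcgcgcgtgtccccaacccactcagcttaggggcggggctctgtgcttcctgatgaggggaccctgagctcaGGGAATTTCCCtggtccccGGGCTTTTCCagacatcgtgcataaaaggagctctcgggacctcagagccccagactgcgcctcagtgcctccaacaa
Cxcl1: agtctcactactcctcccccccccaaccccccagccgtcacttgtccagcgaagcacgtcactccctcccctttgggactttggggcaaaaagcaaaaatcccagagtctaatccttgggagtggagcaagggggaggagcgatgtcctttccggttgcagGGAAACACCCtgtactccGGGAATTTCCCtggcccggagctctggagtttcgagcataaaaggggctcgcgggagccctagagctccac
Nfkbia: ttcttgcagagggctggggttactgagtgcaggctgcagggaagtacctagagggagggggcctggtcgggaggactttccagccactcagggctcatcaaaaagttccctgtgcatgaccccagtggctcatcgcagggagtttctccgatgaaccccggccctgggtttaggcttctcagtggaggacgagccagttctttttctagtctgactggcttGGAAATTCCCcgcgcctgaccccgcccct
Tnfaip3: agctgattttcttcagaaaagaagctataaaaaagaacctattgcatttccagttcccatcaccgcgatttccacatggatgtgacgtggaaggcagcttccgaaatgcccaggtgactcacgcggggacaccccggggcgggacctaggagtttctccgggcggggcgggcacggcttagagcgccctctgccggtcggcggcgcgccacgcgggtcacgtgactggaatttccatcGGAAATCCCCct

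In Cxcl2 the first match began 97 bases before the start, and a further one 78 bases before it. In Cxcl1, matches began 89 and 71 bases before the start, in Nfkbia 29 and in Tnfaip3 12. The table held 32851 promoters, of which 5.56% had the motif. For 32 of the 39 genes that rose it listed 43 promoters, and 10 of these (23.3%), belonging to Cxcl1, Cxcl2, Csf1, Il1rn, Nfkbia, Nfkbid and Tnfaip3, had it. Of 562 promoters of the tested genes that were not called, 57 had it (10.1%), and of 12 promoters of genes that fell, 0 had it. Of the 3 promoters listed for the genes of the rule (Ccl3, Tnf and Il1a), 0 had these letters in the window. The match is a description of sequence, and binding was not measured.

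Of 13 tested effector genes of the NF-κB pathway, 7 rose and none fell (median log2 0.69), against 6.28% of all genes tested that rose. Icam1, an adhesion molecule that binds the leukocyte integrins, was 10.97 to 27.2 per 10000 in the chosen cells and 2.75 to 9.38 in the others, without overlap (log2 1.49, SE 0.23, adjusted p = 0.000334). Gadd45b, a stress-response gene, was 25.5 ± 9.67 (SD, n = 7) against 10.8 ± 5.46 and higher in 7 of 7 libraries (log2 1.25, SE 0.21). Ptgs2, encoding the prostaglandin synthase COX-2, was 29.9 ± 11.5 against 13.6 ± 6.42, also higher in 7 of 7 (log2 1.12, SE 0.23, adjusted p = 0.0036). Ninj1, a membrane protein that ruptures the plasma membrane in lytic cell death, was 8.69 to 19.2 against 2.95 to 8.58 (log2 1.09, SE 0.23). Sod2 and Mmp9 were not called, with log2 differences of 0.50 (SE 0.33) and 0.35 (SE 0.22).

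Among AP-1 and other immediate early genes, 6 of 19 tested rose and none fell (median log2 0.42), against 6.28% of all genes tested that rose. Zfp36, encoding tristetraprolin, a protein that destabilises Tnf and other cytokine transcripts, was 15.5 to 68.7 per 10000 (median 62.0) in the chosen cells and 11.2 to 57.7 (median 19.4) in the others, higher in 7 of 7 libraries (log2 1.14, SE 0.20, adjusted p = 0.000933). Dusp2, a phosphatase of MAP kinases, had a log2 fold change of 1.43 (SE 0.32), and Maff, a small Maf transcription factor, of 1.49 (SE 0.35), each higher in 6 of 7 libraries. Nr4a1, an orphan nuclear receptor, rose by 0.79 (SE 0.23), and its call was lost without any 1 of replicates 2, 3, 4, 8 or 11 (log2 0.52 to 0.83). Fos (log2 −0.45, SE 0.25) and Jun (0.05, SE 0.27), the genes of the classic AP-1 dimer, were not called. Of the 3 tested heat shock genes, none rose, and Hsp90ab1 fell by 1.34 (SE 0.35), a call that was lost without any 1 of replicates 1, 2, 3, 4, 8 or 11 (log2 −1.35 to −1.17).

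Genes counted as immunoregulatory rose in 4 of 5 tests (median log2 1.09), against 6.28% of all genes tested. Cd274, encoding the inhibitory ligand PD-L1, was 17.7 ± 8.43 per 10000 against 8.01 ± 3.16 and higher in 7 of 7 libraries (log2 1.09, SE 0.23, adjusted p = 0.00418). Socs3, an inhibitor of STAT3 signalling downstream of G-CSF and IL-6, was 14.5 ± 9.06 against 6.40 ± 4.23, again higher in 7 of 7 (log2 1.18, SE 0.23, adjusted p = 0.0029). Irg1, also named Acod1, which makes itaconate, was 63.2 ± 22.9 against 35.3 ± 14.1 (log2 0.82, SE 0.22, adjusted p = 0.0237), and its call was lost without any 1 of replicates 1, 2 or 4 (log2 0.57 to 0.81). Ptgs2, described above, was the fourth. Il10, the classic inhibitory cytokine, had too few transcripts to be tested. The lists overlap. Of the called genes, Ptgs2, Icam1, Gadd45b, Cd274, Il1b and Cxcl1 are each in 2 of them, as are some genes not called, such as Mmp9, Birc3 and Cflar.

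Of 14 interferon-response genes tested, 1 rose (Gbp4, log2 0.97, SE 0.28, lost without replicate 2 or 7 at 0.80 and 0.90) and the median log2 fold change was 0.03. Over all genes tested 6.28% rose. Of 6 genes of glycolysis and hypoxia none passed the test (median log2 −0.03), and of 7 survival genes 1 rose (Gadd45b). In the list of tissue-adapted and aged neutrophils, 2 of 6 tested rose, Icam1 and Cd274, while Cxcr4, the receptor that marks aged neutrophils, had a log2 difference of 0.51 (SE 0.21, adjusted p = 0.12) with higher values in 7 of 7 libraries. Outside every list, 10 genes rose and 8 fell. AA467197, a small transcript also known as Nmes1, was 5.64 ± 3.16 per 10000 against 1.96 ± 0.851 (log2 1.57, SE 0.29), and Ralgds, an activator of Ral GTPases, 4.92 ± 2.47 against 1.88 ± 0.545 (log2 1.47, SE 0.30). Both were higher in 7 of 7 libraries, and both may have passed the low-count filter because of the chosen cells.

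**Figure D3:**
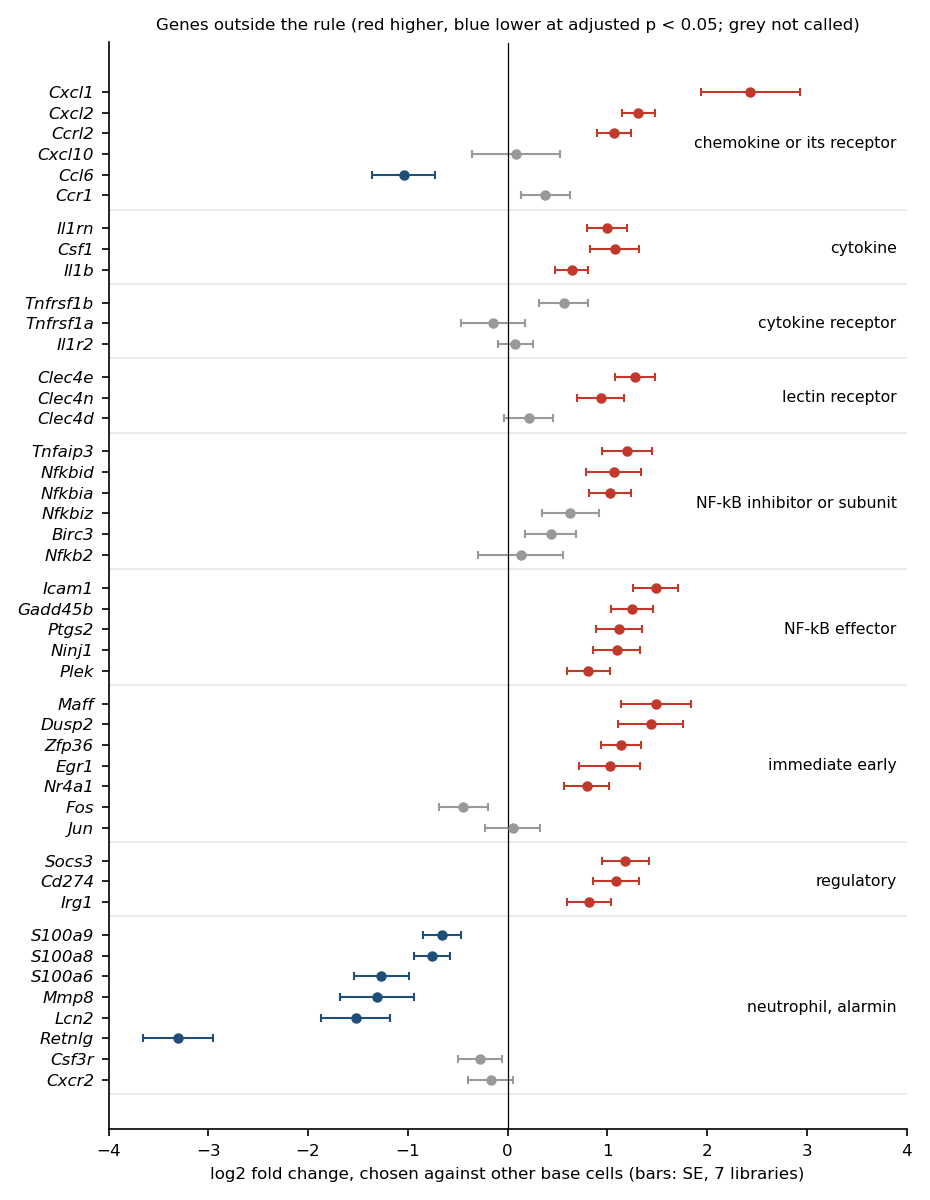
Log2 fold changes (points) and standard errors (bars) of chosen against other base cells over 7 aGVHD libraries, for genes of the lists outside the 4 that chose the cells. Red genes rose and blue genes fell at an adjusted p of 0.05, and grey genes were not called. The called inhibitors Tnfaip3, Nfkbid and Nfkbia, the lectin receptors Clec4e and Clec4n, and Cxcl1 and Cxcl2 lie to the right. Clec4d, Nfkbiz, Birc3 and Nfkb2 were not called. Retnlg, at −3.30, lies farthest to the left. S100a8 and S100a9 were used to define the base and are shown as a description.

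Of 20 tested genes of mature neutrophils and alarmins, 7 fell and 1 rose, Il1b, with a median log2 fold change of −0.55. Over all genes tested 2.74% fell. Without S100a8 and S100a9, which define the base, 5 of 18 fell and 1 rose (median −0.51). Retnlg, encoding resistin-like γ, had the largest difference of any gene called. It was 2.48, 0.832, 3.02 and 9.07 per 10000 in the chosen cells of aGVHD replicates 1 to 4 and 3.46, 3.66 and 0 in those of replicates 7, 8 and 11. In the other base cells of these libraries it was 20.4, 4.90, 43.8, 51.3, 54.8, 13.6 and 14.3. It was lower in 7 of 7 libraries, and the classes overlapped only because of replicate 2 among the other cells and replicate 4 among the chosen ones (log2 −3.30, SE 0.35, adjusted p = 3.96e-06). After thinning each cell to 300 named transcripts, 5.32% of 94 chosen and 29.3% of 536 other base cells held a Retnlg transcript, against 23.2% and 52.0% before thinning.

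S100a8, the calprotectin subunit gene used with S100a9 to define the base, was 64.1 ± 23.3 per 10000 in the chosen cells and 108 ± 56.0 in the others, lower in 7 of 7 libraries. Since both classes had to pass a minimum of the 2 genes, this value is a description. Lcn2, the gene of the study's title, which encodes a protein that sequesters bacterial iron carriers, was 0 to 12.7 per 10000 (median 2.91) in the chosen cells and 2.61 to 30.5 (median 7.85) in the others. It was lower in 7 of 7 libraries (log2 −1.52, SE 0.35, adjusted p = 0.00657), and without aGVHD replicate 7 its log2 fold change was −1.09 and the call was lost (adjusted p = 0.0876). S100a6 fell by 1.27 (SE 0.28), lower in 7 of 7, and Mmp8, the neutrophil collagenase, by 1.30 (SE 0.37), lower in 5 of 7. Wfdc21 fell by 1.14 and was called in none of the fits without replicate 1, 2, 4, 8 or 11 (log2 −1.20 to −0.93). Csf3r, the G-CSF receptor (log2 −0.28, SE 0.22), and Cxcr2 (−0.17, SE 0.23) were not called.

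**Figure D4:**
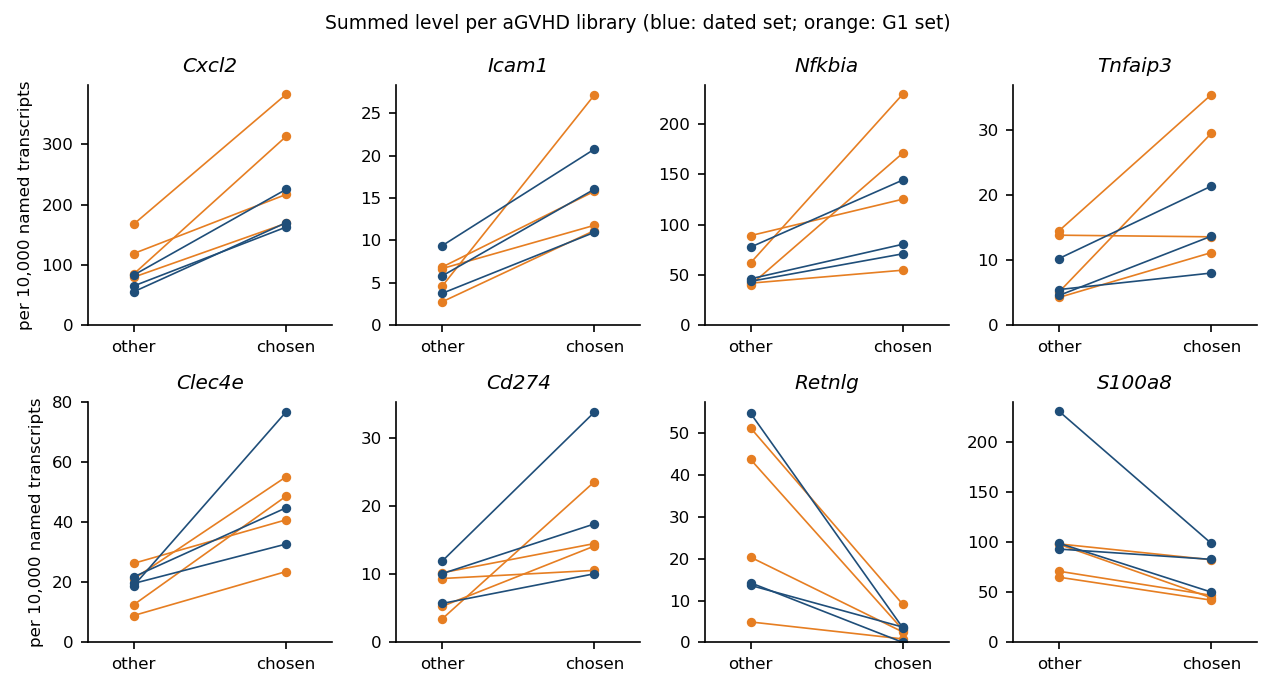
Summed level, in transcripts per 10000 named transcripts, of 8 genes in the other and the chosen base cells of each of 7 aGVHD libraries, joined by a line and coloured by title set. Cxcl2, Icam1, Nfkbia, Clec4e and Cd274 are higher in the chosen cells of all 7 libraries and Tnfaip3 of 6, and Retnlg and S100a8 are lower in all 7.

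Other features moved with the same classes. Mitochondrial transcripts were 4.86% to 8.55% (median 6.86%) of the named transcripts in the chosen cells and 6.94% to 20.5% (median 12.1%) in the others, lower in 7 of 7 libraries. The mitochondrial ribosomal RNAs mt-Rnr1 and mt-Rnr2 fell by 1.14 and 1.07 on the log2 scale. Without cells of very high total or high Kcnq1ot1 they were still called, but at −0.62 and −0.54. In the dated set alone they were at −0.68 and −0.66. The highest total of a cell was 8027 transcripts among the chosen and 24839 among the other base cells. Ribosomal protein transcripts were lower in 6 of 7 libraries (median 2.09% against 3.57%). MHC class II transcripts were lower in 6 of 7 (median 0.154% against 0.400%), and H2-Aa and H2-Ab1 fell by 1.66 (SE 0.35) and 1.46 (SE 0.33). The summed level of the 14 macrophage and monocyte markers was 6.24 to 21.9 per 10000 (median 9.93) in the chosen cells and 10.9 to 19.97 (median 15.7) in the others, lower in 6 of 7 libraries, with Ms4a7 and Cx3cr1 at 0 in the chosen cells. Without cells with any C1q transcript, 31 genes were called rather than 56. Zyx, encoding a focal adhesion protein, fell by 1.44 (SE 0.38), with its call lost without any 1 of replicates 2, 7, 8 or 11 (log2 −1.48 to −1.23). Lyz1, which reads of the near-identical Lyz2 could reach, fell by 1.10 and is uncertain. The part of these features in the results above was not tested.

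The 10 T and NK markers in the tables summed to 0 to 1.34 per 10000 in the chosen cells and the 5 mast cell and basophil markers to 0 to 0.907. Eosinophil markers were higher in the chosen than in the other base cells of 5 of 7 libraries, at 0 to 7.26 per 10000 (median 2.68) against 0.275 to 4.70 (median 0.879). Over all 95 chosen cells, Siglecf gave 39 of their transcripts, while Prg2, Ear1, Ear6, Il5ra and Alox15 were at 0. B and plasma cell markers had a median of 0 in the chosen cells (1.38 in the others) but reached 137 in 1 library (highest of the others 69.6). Over all 95 chosen cells, Igkc gave 148 of their transcripts. The part of these markers in the results was not tested.

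The chosen cells of both title sets had a like mixture of the 4 genes, with Ccl3 giving 37.7% of the dated set's sum and 38.9% of the G1 set's, and Tnf 21.4% and 23.8%. The class difference of Cxcl1 was not alike. Its log2 fold change was 3.98 within the 4 G1 libraries and 0.52 within the 3 dated libraries, and the interaction of class and set, added after the data were seen, was 3.47 (SE 0.67, adjusted p = 0.0327), the only 1 of 621 genes to pass (0.161%). In the other base cells of the dated libraries Cxcl1 stood at 3.52, 0.735 and 1.54 per 10000, against 0.138, 0.196, 0.368 and 1.38 in the G1 libraries. These G1 levels were 1, 1, 2 and 14 transcripts, so the G1 fold change and the interaction rest on very few counts. Fitted alone, the G1 set called 23 genes and the dated set 37. Cxcl2 (log2 1.42 for dated and 1.26 for G1 libraries), Icam1 (1.31 and 1.65), Clec4e (1.24 and 1.33), Gadd45b (1.15 and 1.31) and Retnlg (−3.86 and −2.74) passed in each set alone, and kept their direction and call under every other alternative in which they were tested. Nfkbia (0.78 and 1.27), Tnfaip3 (1.04 and 1.31), Il1rn (0.915 and 1.07), Ninj1 (1.04 and 1.21) and Cd274 (1.05 and 1.18) had estimates of the same sign in both sets but passed only in the dated set (limma adjusted p 0.0608 to 0.0775 in the G1 set), and so did Lcn2 (−1.98 and −0.88, adjusted p = 0.288 in the G1 set). Other genes passed only in the G1 set, among them Socs3 (0.98 and 1.30), Il1b (0.41 and 0.85) and Irg1 (0.295 and 1.26). Their limma adjusted p in the dated set was 0.132, 0.252 and 0.548. Nfkbid, Nr4a1, Gbp4 and H2-Ab1 were among those that passed in neither set alone. Ralgds missed in the dated set (1.33, limma adjusted p = 0.119).

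A difference in the share of chosen cells between aGVHD and control libraries was not detected beyond the spread between libraries. Over libraries with at least 5 base cells it was 15.2% ± 9.47 (SD, n = 12) in aGVHD and 13.5% ± 8.36 (n = 7) in control libraries, a difference of 1.72 percentage points (two-sided exact permutation test within title sets, p = 0.673). Libraries of the dated set alone differed by 1.33 points (exact p = 0.793). Those of the G1 set alone differed by 1.31 points, with only 15 arrangements of the labels, too few to reach 0.05 (exact p = 0.933). The highest shares were 33.3% in aGVHD replicate 2 and 30.4% in replicate 7, which supplied 13 and 17 of the 95 cells, and without both the difference was −1.60 points. Without control replicate 3, which had 0 chosen among 23 base cells, it was −0.52 points. With the score divided by all transcripts, unnamed gene models included, the shares were 15.9% and 10.4%, a difference of 5.56 points (exact permutation p = 0.137). The control libraries with at least 5 base cells held 10 to 26 of them, so that 1 cell moved a share by several points. The 3 control libraries left out had 2 or 3 base cells each.

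The 4 genes themselves also did not pass the test between groups when summed over all base cells (19 libraries, 887 genes tested, 0% called, 119 genes at an unadjusted p under 0.05 in limma). Ccl3 was 14.4 ± 9.66 per 10000 (SD, n = 12) in aGVHD and 14.8 ± 8.96 (n = 7) in control libraries, with overlapping ranges (log2 −0.18, SE 0.30, adjusted p = 0.835). Ccl4 was 7.79 ± 3.53 and 6.61 ± 3.52 (log2 0.32, SE 0.38, adjusted p = 0.764), and Il1a 7.63 ± 5.33 and 6.44 ± 3.68 (log2 0.09, SE 0.35). Tnf had the largest estimate of the 4, with 4.20 to 23.7 per 10000 (median 7.34) in aGVHD and 1.41 to 10.7 (median 5.08) in control libraries, but it too missed the threshold (log2 0.70, SE 0.38, adjusted p = 0.431). Il23a was 2.28 ± 1.84 against 1.67 ± 1.32 (log2 0.05, SE 0.65) and Cxcl1 1.77 ± 1.37 against 1.69 ± 2.15 (log2 0.63, SE 0.78). Levels above every control library were reached in 4 of the 12 aGVHD libraries for Tnf, 3 for Ccl4, 2 for Il1a and 1 for Ccl3.

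**Figure D5:**
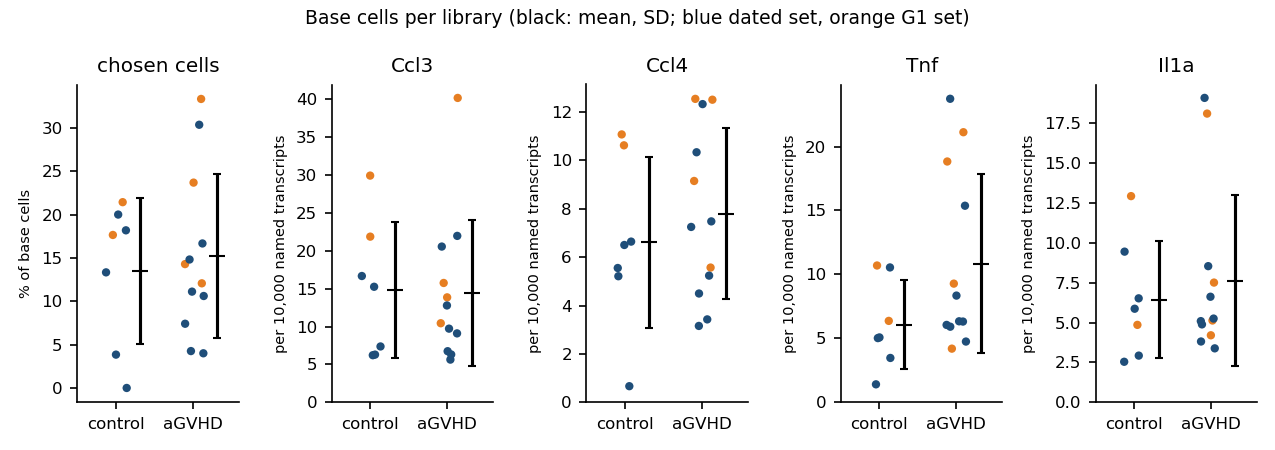
Share of base cells that were chosen (percent) and levels of Ccl3, Ccl4, Tnf and Il1a over all base cells (transcripts per 10000 named transcripts), for each library with at least 5 base cells (points, 7 control and 12 aGVHD), with the mean and SD in black. The groups overlap in every panel, and the highest Tnf values (23.7) and Ccl3 values (40.1) are from aGVHD libraries.

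Within the chosen cells, a comparison of the groups was possible over 9 aGVHD libraries and 2 control libraries with 3 chosen cells each. Of 259 genes tested with limma 0% passed and 20 had an unadjusted p under 0.05. With 6 control cells in all, differences between the chosen cells of the groups were not detectable at this depth unless large.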

How the data were processed

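Each of the 22 libraries (10 control, 12 aGVHD, grouped by their descriptions) was a table of 192 barcodes. The values deposited by the authors are estimated counts of transcripts, recorded in the unit table under other, and not normalised for depth: every value above 0 matched the number expected from a whole count of identifiers out of 4096 (tolerance 1e-06, 0 exceptions). The submitters' processing notes list BWA 0.6.2-r126 and bcl2fastq 2.17.1.14. A genome build was not given in the sources used here. Values were rounded to whole transcripts. Genes whose names start with Gm counted toward the minimum of 500 but not toward named transcripts. Kept cells were not screened with a doublet caller.

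The members, markers and lists were chosen with earlier results of these data known. Sums per library and class were tested with limma 3.58.1 in R 4.3.3 (voom, trimmed-mean scaling with 0.3 of ratios and 0.05 of levels trimmed, a filter on low genes of 10 transcripts at the median library size and 15 over all libraries, Benjamini-Hochberg at 0.05). The class test had the library as a block and left the 4 genes out, and the group tests had the title set as covariate. Shares were compared by exact permutation within title sets (Python 3.11.15, scipy 1.17.1). As libraries are not tied to mice, p-values cover the spread of these libraries, which may be technical. Scripts were tested on simulated data. Named were the 4 genes, their receptors and fixed relatives, up to 4 called genes per list by p, and the 12 largest called changes in each direction. Pairing of the groups' libraries by title number was not shown. Correlations of deviations of same-numbered libraries ran from −0.39 to 0.25 over 5 pairs, too few to exclude pairing.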

Additional observations from a re-analysis of the deposited data

Results flagged for a closer look

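In groups of 4 to 10 libraries, a library was picked out where its gap to the nearest other one took up an unusually large part of the group's range. Of 97 groups of values looked at, 11 had such a library, in each case the highest. The cut-off picks out about 1 in 20 groups of independent, normally distributed values. These groups share libraries and many hold few counts, so that rate need not apply to them. Among the chosen cells, the highest library had 9.07 Retnlg transcripts per 10000 (next 3.66), 9.07 Mmp8 (next 3.46), 7.45 Hsp90ab1 (next 2.91), 21.0 Tnfrsf1b (next 9.37) and 18.7 Il23a (next 7.24). Among the other base cells, the highest library had 231 S100a8 transcripts per 10000 (next 99.1), 57.7 Zfp36 (next 31.1), 22.7 Gadd45b and 3.52 Cxcl1 (next 1.54). Over the base cells of control libraries, Il23a reached 4.43 (next 2.22) and Cxcl1 6.11 (next 2.21). The class difference of Cxcl1 differed between the title sets by 3.47 on the log2 scale (G1 minus dated, SE 0.67, limma adjusted p = 0.0327). It rests on few counts, with 1, 1, 2 and 14 transcripts in the other base cells of the G1 libraries.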

How the results depend on the processing

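The 56 genes called between the classes became 26 for the top 10% of cells, 31 without cells with any C1q transcript, 18 with no replicate block (the library), 15 of 70 tested after thinning cells to 300 named transcripts, 26 of 136 with cells chosen on a random part and read in the rest, 23 in the G1 set alone and 37 in the dated set alone, and 39 to 54 with 1 library left out. With no low-count filter 8215 of 14511 were called, 89.7% of them with under 15 transcripts, at a median log2 fold change of 0.998. Of the genes called in the main comparison and tested again, all kept their direction in each of these settings except with no filter, where 53 of 56 did. Without cells of very high total or high Kcnq1ot1 the split was 27 higher and 25 lower, and with sums thinned to equal totals, an alternative chosen after seeing the data, 23 and 20. For the class differences of single named genes, 395 of 521 alternatives other than leaving out a library kept direction and call and 116 lost the call. Reversed estimates came with no filter for Il1b (−0.0088), Tnfaip2 (−0.037), Tnfrsf1b (−0.092), Ccr1 (−0.26) and Il1r2 (−0.53), and otherwise for Tnfrsf1a (0.28 in the G1 set, −0.35 to 0.074 with 1 library left out) and Il1r2 (−0.12 for the top 10%, −0.35 thinned, −0.024 without cells of very high total, −0.079 in the G1 set, −0.059 to 0.15 with 1 library left out). The cause was not tested. The share difference of 1.72 percentage points became −0.34 at a minimum of 250 transcripts, −0.60 at 1000, 1.12 for the top 10%, 0.51 for a score without Il1a, 5.56 (p = 0.137) for a score divided by all transcripts, −0.52 to 3.05 with 1 library left out, −1.60 without both aGVHD replicates 2 and 7, and 0.99 over 5 pairs with title numbers as a replicate block (exact permutation p = 0.938; smallest possible 0.0625). Between groups over base cells, 11 genes were called with no filter, 3 with the replicate block and 1 in the same libraries unblocked. Reversed there were Ccl3 (0.12, no filter), Ccl4 (−0.050 in the G1 set) and, with 1 library left out, Ccl4 (−0.15 to 0.49), Il1a (−0.080 to 0.27) and Il23a (−0.24 to 0.18). The class by group interaction and the group test at 5 chosen cells were not run, because no control library had 5 chosen cells. Few control cells limit the depth.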
